A study of Rattus norvegicus with 3 samples.

Results

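Of the 23188 features on the array, 8139 (35.1%) had no gene symbol in the platform annotation used here, and these features without a symbol are described below against the 15037 named genes. They were selected by the absence of a symbol alone, a rule that uses no signal value. The rule was set with earlier results of these data known. A feature without a symbol is unnamed here and need not lack a gene, since the annotation table lists the named features alone. The arrays measured total RNA of blood platelets from F344 rats, an inbred strain. There were 3 groups with 1 array each: platelets encapsulating sorafenib, platelets encapsulating lenvatinib, and control platelets. Drug loading lasted 30 minutes at 37 °C with 10 µg of drug, followed by a wash. All 3 groups were made from blood of the same 5 rats, whose platelet suspensions were pooled within each group, and no genetic alteration is given for the animals. The labels do not say whether control platelets went through the same incubation and wash, so drug and handling cannot be told apart. With 1 array a group there are no replicates, no p-value or error is given, and every difference is between single arrays.

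Platelets have no nucleus, and most of their RNA was made in the megakaryocyte, the marrow cell that sheds them. They also carry mitochondria, whose small circular genome encodes subunits of the respiratory chain and is transcribed inside the organelle. Sorafenib and lenvatinib both block several receptor kinases, among them those for vascular growth factors.

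All values are log2 signals as deposited, and a difference of 1 is 2-fold. Signals of different features depend on their probes, so a higher signal is not a higher number of transcripts. Against the platelet label, 9 of 10 measured platelet markers lay at or above the negative-control level, among them Pf4, a platelet chemokine, and Itgb3, a subunit of the fibrinogen receptor. The marker not reaching it was Selp, at 6.54 on every array. The platelet median was 19.13 with sorafenib, 19.14 with lenvatinib and 19.12 in control. The negative-control level is 7.69, the 95th percentile of 1153 negative control features. Of the other markers at or above it there were 4 of 6 for red cells, 1 of 5 for neutrophils, 1 of 4 for monocytes, 2 of 4 for endothelium, and 0 of 5 for T cells, 0 of 1 for B cells and 0 of 4 for hepatocytes. For endothelium, Pecam1 at 12.85 and Vwf at 12.62 reached that level, while Cdh5 at 4.03 and Tek at 4.16 did not. The endothelial list was thus split, and the presence of endothelial RNA is not read from it. The red-cell median was 10.16 with sorafenib, 10.51 with lenvatinib and 10.01 in control, and the part of red-cell RNA in the differences below was not tested. In pooled platelets, fewer cells of a type and less RNA per cell cannot be told apart. Of the 48 markers listed, 9 had no named feature and were not analysed here.

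Features without a symbol carried much the same range of signal as named genes. Their mean over the 3 arrays had a median of 4.14, against 4.25 for named genes. The negative control features had a median of 4.13, so the middle of both sets lay near typical negative-control signal. The highest 5% began at 10.91 for features without a symbol, against 11.77 for named genes. By array, the median of features without a symbol was 4.14 with sorafenib, 4.15 with lenvatinib and 4.14 in control. At or above the negative-control level were 883 features without a symbol (10.8%), against 1961 named genes (13.0%). Olfactory, vomeronasal and taste receptor genes, which serve chemical senses and form large families in the rat, gave a measure of genes with low signal on these arrays. All 1190 named members of those families lay below the negative-control level, with a median of 3.64 and a highest mean of 6.94. With them left out, 14.2% of named genes reached that level.

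**Figure D1:**
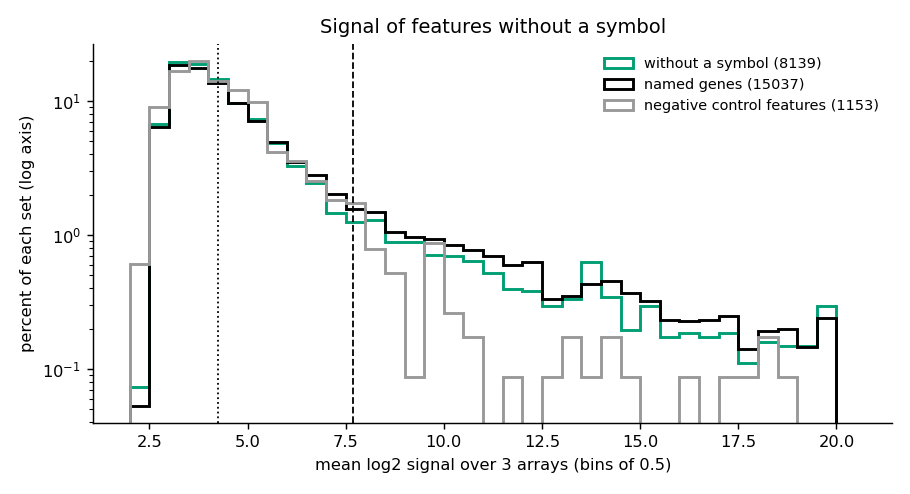
Distribution of the mean log2 signal over the 3 arrays (x axis, bins of 0.5) as percent of each set (y axis, log scale) for features without a symbol, named genes and negative control features. The dotted line is the low-signal filter at 4.25 and the dashed line the negative-control level at 7.69. Features without a symbol and named genes follow nearly the same curve up to the ceiling.

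The share of features without a symbol varied more in narrow bins of signal than in broad classes. It was higher at the ceiling, as given below. In the broad classes, features without a symbol made up 30.7% to 36.5% of features. They made up 36.5% of features with means below the low-signal filter of 4.25, the median of the named genes. They were 34.6% of those from 4.25 to the negative-control level, 30.7% from there to 12, 31.4% from 12 to 16 and 31.8% at 16 and above. Between 13.5 and 14 the curve had a small rise: 51 features without a symbol (0.627%) lay there, against 65 named genes (0.432%). From 13 to 13.5 there were 27 features without a symbol and 53 named genes, so both sets rose. This bin was picked after the curve was seen, and some of the 51 shared all their values with another feature, as described below. Of those 51, 50 had a placed chromosome in their id and were spread over 18 chromosomes.

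At the ceiling of 19.93, the highest value the data hold, features without a symbol were about as many as named ones. With sorafenib 16 of 32 features at the ceiling had no symbol, with lenvatinib 14 of 28, and in control 16 of 31. The members were the same on every array apart from TC0700002992.rn.2 and TC0900001927.rn.2. TC0700002992.rn.2 was at the ceiling with sorafenib, at 19.92 with lenvatinib and at the ceiling in control. TC0900001927.rn.2 was at the ceiling with sorafenib, at 19.90 with lenvatinib and at the ceiling in control. Of the 14 features at the ceiling on all 3 arrays, 3 were on chromosome 3: TC0300001046.rn.2, TC0300001950.rn.2 and TC0300004459.rn.2. Another 2 were mitochondrial, TC0M00000006.rn.2 and TC0M00000011.rn.2. TC0200003095.rn.2, TC0400000888.rn.2, TC0500001644.rn.2, TC0600002485.rn.2 and TC1000004259.rn.2 were further ones. For these 14 no difference between arrays can be read, because the value is only a bound.

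Just below the ceiling, the 12 strongest features without a symbol had means of 19.32 to 19.90, and their 3 values lay close together. TC0600002089.rn.2 read 19.87 with sorafenib, 19.91 with lenvatinib and 19.91 in control. TC0700000294.rn.2 read 19.91 with each drug and 19.88 in control. TC0700000995.rn.2 read 19.88 on every array, TC1000001626.rn.2 read 19.79 and TC0100006410.rn.2 read 19.77. These 3 features held the same value throughout, so nothing separates their arrays. TC1000002992.rn.2 read 19.48 with sorafenib and 19.49 both with lenvatinib and in control. TC0500001341.rn.2 read 19.54 with sorafenib, 19.37 with lenvatinib and 19.55 in control. TC0X00002487.rn.2, on the X chromosome, read 19.32 on each array. In TC0500001341.rn.2 the lenvatinib array was the low one, with a difference of -0.18 from control. The other 4 of the 12 were mitochondrial and are given further on.

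Exact ties between arrays were as common as among named genes. The value was the same on all 3 arrays for 1423 features without a symbol (17.5%), against 2597 named genes (17.3%). It was the same on 2 arrays for 39.7% of features without a symbol and 40.3% of named genes. The cause of these ties was not tested.

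The chromosome is written in the feature id. For the 14834 named features with a placed chromosome, it equalled the RefSeq chromosome (assembly GRCr8) in 99.5% of cases. Going up the id numbers, the next named feature lay further along the RefSeq chromosome in 94.9% of cases, so the ids run mostly in chromosomal order. Of the features without a symbol, 8040 had a placed chromosome, 12 an unlocalised scaffold of a chromosome, and 87 no chromosome.

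Among the 20 autosomes the share of features without a symbol ran from 29.4% on chromosome 20 to 39.6% on chromosome 15. It was higher outside the autosomes. On the X chromosome 461 of 931 features had no symbol (49.5%), and on the Y chromosome 4 of 7. All 10 mitochondrial features lacked one. Of the features on unassigned scaffolds 47 of 63 had no symbol (74.6%), but only 40 of the 234 with an unmapped id (17.1%).

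**Figure D2:**
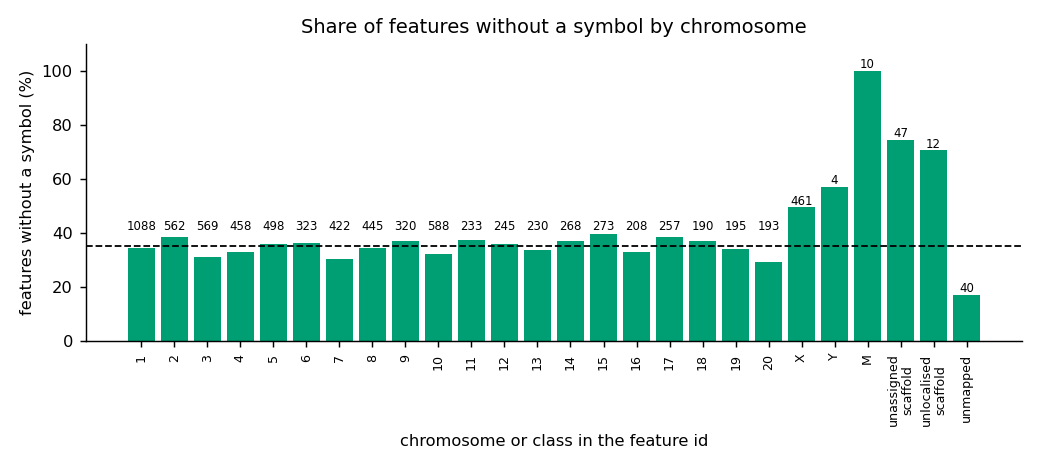
Percent of features without a symbol (y axis) for each chromosome or class written in the feature id (x axis), with the number of such features above each bar. The dashed line is the share over all features, 35.1%; the X chromosome stands at 49.5% and the mitochondrial chromosome at 100%.

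Among the autosomes the median signal of features without a symbol ran from 4.02 on chromosome 5 to 4.50 on chromosome 17, and on the X chromosome it was 4.01, against 4.19 for named genes there. The share at or above the negative-control level ran among autosomes from 8.46% on chromosome 1 to 16.5% on chromosome 13. It was below that of named genes of the same chromosome on 15 of 20 autosomes. On the X chromosome it was 9.98% for features without a symbol, against 15.5% for named genes. These shares describe the features of 3 arrays and were not tested.

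Neighbours in id order often shared the lack of a symbol. After a feature without a symbol the next one also lacked a symbol in 43.5% of cases, against 30.6% after a named feature. With the mitochondrial chromosome left out, 2790 of 4544 runs of such features held a single one (61.4%), and 18 runs held 10 or more. The longest run was 35 features on chromosome 8, from TC0800000443.rn.2 to TC0800000485.rn.2. Their median signal was 3.66 and their highest mean 5.31, so none of them reached the negative-control level. Of features without a symbol, 1.41% lay between chemical-sense receptor genes on both sides, against 3.85% of named features. The named features counted here include the receptor genes themselves, so these shares are not like for like. Named features outside those families were not counted apart.

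By chromosome, the mitochondrial features had the highest median signal, 19.59. All 10 lay at or above the negative-control level, with means from 14.41 to 19.93, and 6 of them had means of 19 or more, against 36 of all 8139 features without a symbol. No named feature is mitochondrial, and the gene table used here holds no mitochondrial gene, so the 10 stay without names. They come from 1 small genome and the same arrays and are not independent of each other. The mitochondrial subset was singled out after its values were seen.

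In each of the 8 mitochondrial features below the ceiling the sorafenib array read higher than the lenvatinib array as deposited, by small amounts, and 1 of the 8 became a tie under quantile normalization. TC0M00000017.rn.2 read 17.49 with sorafenib, 17.11 with lenvatinib and 17.30 in control. TC0M00000022.rn.2 read 18.94 with sorafenib, 18.59 with lenvatinib and 18.72 in control. TC0M00000037.rn.2 read 15.33 with sorafenib, 15.04 with lenvatinib and 15.05 in control. In this last feature the lenvatinib and control arrays nearly coincide and the sorafenib array stands above them. TC0M00000019.rn.2 read 19.80 with sorafenib and 19.63 both with lenvatinib and in control. TC0M00000023.rn.2 read 19.82 with sorafenib, 19.69 with lenvatinib and 19.82 in control. These show each side in turn: in the first the sorafenib array alone is high, in the second the lenvatinib array alone is low. TC0M00000015.rn.2 read 14.48 with sorafenib, 14.32 with lenvatinib and 14.42 in control. TC0M00000013.rn.2 read 19.53 with sorafenib, 19.43 with lenvatinib and 19.50 in control, and TC0M00000009.rn.2 read 19.80, 19.78 and 19.80 in the same arrays. TC0M00000006.rn.2 and TC0M00000011.rn.2 were at the ceiling throughout.

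**Figure D3:**
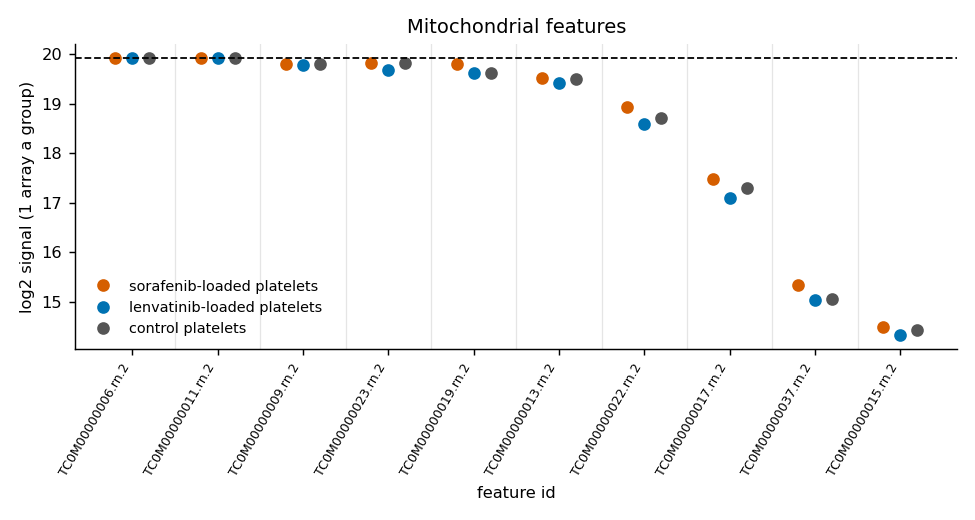
Log2 signal (y axis) of the 10 mitochondrial features (x axis) on the sorafenib, lenvatinib and control arrays, 1 point an array, with the ceiling of 19.93 as a dashed line. In the 8 features below the ceiling the sorafenib point is above the lenvatinib point, by 0.02 to 0.38; quantile normalization turns 1 of these into a tie.

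For sorafenib minus lenvatinib, 8 of the 10 mitochondrial features were higher, 0 lower and 2 tied at the ceiling. Of the 561 other features with means of 14.41 or more, 36.7% were higher and 42.1% lower in that comparison, and the SD of their differences was 0.17. Over the 8 below the ceiling the median difference was 0.17, with a range of 0.02 to 0.38, and none was 2-fold. Under quantile normalization 7 of the 8 were higher and 0 lower, and under median centring and cyclic loess all 8 were higher. For sorafenib minus control 6 of 10 were higher and 0 lower, against 40.8% of the other features higher and 34.9% lower; median centring gave 6 higher and 2 lower of the 8, and quantile normalization 5 and 2. For lenvatinib minus control 0 were higher and 7 lower, against 37.3% of the other features higher and 42.6% lower; cyclic loess gave 1 higher and 7 lower of the 8. The comparisons share arrays and are not independent of each other.

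Sorafenib-loaded and control platelets were compared to find which features without a symbol differ after loading. Of 3821 such features above the low-signal filter, 13 lay 2-fold or more above control with sorafenib and 14 lay 2-fold or more below it, or 0.707%. Among the 13, TC0800002305.rn.2, TC0800002307.rn.2 and TC0800002308.rn.2 had exactly the same values and are not separate measurements. With features of the same 3 values counted once, the total was 25, or 0.697%. The shares given next count every feature, so 0.707% is the one to set against them. Over all 11340 features above the filter the share was 0.626%, with 0.317% higher and 0.309% lower, so the count is near the background. Named genes gave 0.585%. The median difference was 0 for both sets, and the SD of the differences was 0.27 for both. The 1153 negative control features differed more between these arrays: with no filter, 17.6% were 2-fold apart, with an SD of 0.82. Whether their signals were summarised like those of other features is not given. Counting any size of difference, 1339 features without a symbol were higher, 1392 lower and 1090 tied.

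The feature furthest above control was TC1400001209.rn.2 on chromosome 14, at 5.43 with sorafenib and 3.66 in control, a difference of 1.76. TC1900000867.rn.2 read 5.42 with sorafenib and 4.03 in control. TC1000000042.rn.2 read 6.53 with sorafenib and 5.26 in control. These 3 lay below the negative-control level on both arrays. TC0100003651.rn.2 was higher by 1.21 and TC0200003593.rn.2 by 1.15, both also at low signal. TC0700003351.rn.2 on chromosome 7 was the sole 1 of the 13 with a mean at or above that level. It read 11.30 with sorafenib, 10.09 with lenvatinib and 10.11 in control, so the sorafenib array alone stood high.

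The feature furthest below control was TC0500004023.rn.2 on chromosome 5, at 5.14 with sorafenib, 6.98 with lenvatinib and 7.12 in control. Its difference of -1.98 was the largest in size of any feature without a symbol above the filter, in any of the 3 comparisons. TC0100003945.rn.2 read 4.09 with sorafenib and 5.79 in control. TC0500003551.rn.2 had a difference of -1.47, TC0700004021.rn.2 of -1.43, TC0100004155.rn.2 of -1.40 and TC1600001503.rn.2 of -1.27. Their means all lay below the negative-control level. At or above it, TC0400000989.rn.2 read 8.36 with sorafenib and 9.43 in control, and TC0X00000236.rn.2 on the X chromosome read 7.97 with sorafenib and 8.98 in control. Both were just past 2-fold, and TC1700002271.rn.2 followed at -0.83. On the upper side TC1700000032.rn.2, at 10.52 with sorafenib and 9.57 in control, came just short of 2-fold, as did TC0700001801.rn.2 at 0.95.

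**Figure D4:**
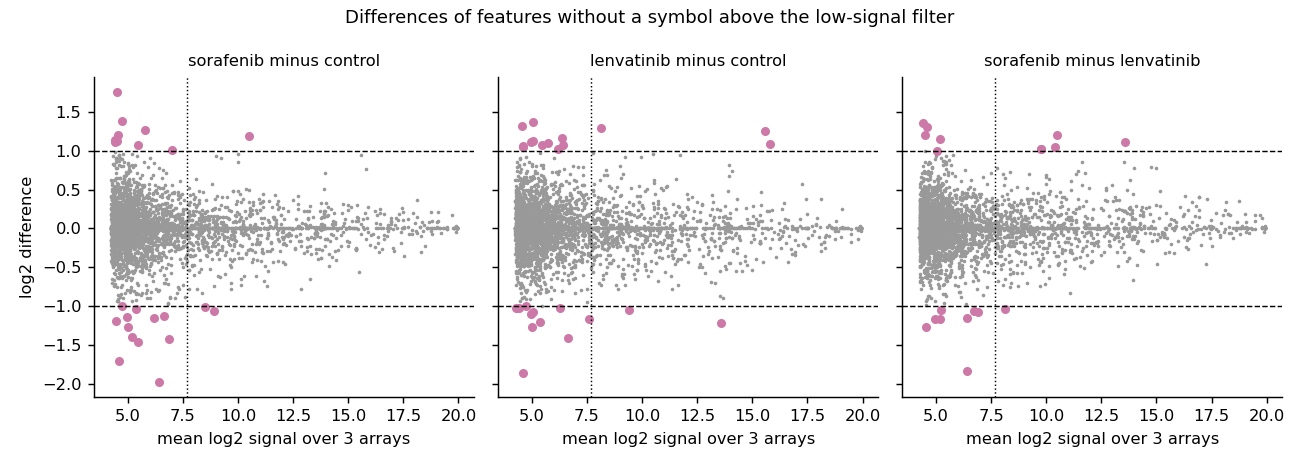
Log2 difference (y axis) against the mean log2 signal over the 3 arrays (x axis) for the 3821 features without a symbol above the low-signal filter, in 3 comparisons of single arrays. Dashed lines mark 2-fold, the dotted line the negative-control level of 7.69, and larger points the 27, 27 and 19 features at least 2-fold apart, most of them left of the dotted line.

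Lenvatinib-loaded and control platelets were compared in the same way. With lenvatinib 14 features without a symbol lay 2-fold or more above control and 13 lay 2-fold or more below it, again 0.707% of 3821. Over all features above the filter the share was 0.67%, with 0.379% higher and 0.291% lower, and for named genes it was 0.652%. The SD of the differences was 0.28 for both sets. Among the negative control features, with no filter, 16.2% were 2-fold apart and the SD was 0.84. There were 1356 features without a symbol higher, 1427 lower and 1038 tied.

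At high signal, 3 features without a symbol differed 2-fold with lenvatinib. TC0700001801.rn.2 on chromosome 7 read 15.81 with sorafenib, 16.11 with lenvatinib and 14.85 in control. TC0200001779.rn.2 on chromosome 2 read 15.95 with sorafenib, 16.27 with lenvatinib and 15.19 in control. In both of these features the drug arrays stood above control, the lenvatinib array further. TC0X00001370.rn.2 on the X chromosome went the other way, at 13.91 with sorafenib, 12.80 with lenvatinib and 14.02 in control. In it the lenvatinib array alone was low, with a difference of -1.22. Between means of 12 and 16 these were 3 of 215 features without a symbol, 2 higher and 1 lower, against 4 of 469 named genes, 4 higher and 0 lower. Over all 684 features between those means, 7 reached 2-fold with lenvatinib, or 1.02%. With sorafenib, 0 of 215 features without a symbol between those means reached 2-fold, and 0 of 469 named genes did.

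TC1000002171.rn.2 on chromosome 10 read 8.76 with lenvatinib and 7.47 in control, a difference of 1.29. TC0900000289.rn.2 was higher by 1.37, TC1000001198.rn.2 by 1.32, TC1000002210.rn.2 by 1.16 and TC0200002059.rn.2 by 1.13, all 4 with means below the negative-control level. On the lower side TC0100003945.rn.2 was furthest, at 3.93 with lenvatinib and 5.79 in control. TC0600000609.rn.2 had a difference of -1.41, TC1600001503.rn.2 of -1.27, TC1800000008.rn.2 of -1.20 and TC1300000421.rn.2 of -1.17, likewise at low means. TC0200002560.rn.2 read 8.91 with lenvatinib and 9.95 in control, and TC0500002240.rn.2 read 13.19 with lenvatinib and 14.08 in control, short of 2-fold.

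At or above the negative-control level, 3 of 883 features without a symbol were 2-fold apart with sorafenib (0.34%), 1 higher and 2 lower, against 0.211% of all features there, with 0.105% higher and 0.105% lower. With lenvatinib 5 were (0.566%), 3 higher and 2 lower, against 0.598% of all features, with 0.387% higher and 0.211% lower. The rest of the 27 and 27 had means between the low-signal filter and that level, as did 2938 of the 3821 features without a symbol above the filter.

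Some features lay far from control in both drug arrays. The control array enters both differences, so a low or high control value alone gives such a pair. TC0100003945.rn.2 on chromosome 1 differed by -1.70 with sorafenib and by -1.87 with lenvatinib. TC1600001503.rn.2 differed by -1.27 in each and TC0600000609.rn.2 by -1.12 and -1.41. TC1400000813.rn.2 on chromosome 14 was higher by 1.08 in each, at 5.84 with both drugs and 4.76 in control. TC1300001635.rn.2 on chromosome 13, at or above the negative-control level, read 9.52 with sorafenib, 9.53 with lenvatinib and 8.61 in control. In all of these the drug arrays lay close together and the control array apart.

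Sorafenib and lenvatinib loading used equal drug mass and duration, and the drug arrays were set against each other. The amount of drug held by the platelets was not among the values used here, so the loaded doses are not known to match. With sorafenib 10 features without a symbol lay 2-fold or more above lenvatinib and 9 lay 2-fold or more below it, or 0.497% of 3821. Over all features above the filter the share was 0.423%, with 0.194% higher and 0.229% lower, and for named genes it was 0.386%. For the negative control features, with no filter, it was 16.2%. TC0500004023.rn.2 showed the widest gap, with 5.14 on the sorafenib array and 6.98 on the lenvatinib array. TC0100001581.rn.2 had a difference of -1.27, and TC0200001369.rn.2 and TC0100004155.rn.2 each of -1.17. On the other side TC0100005125.rn.2 was higher with sorafenib by 1.35, TC0100003651.rn.2 by 1.31, and TC0700003351.rn.2 and TC1100000974.rn.2 each by 1.21. Apart from TC0700003351.rn.2, these 8 had means below the negative-control level.

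At or above that level 5 features without a symbol were 2-fold higher with sorafenib than with lenvatinib and 1 was lower, 0.68% of 883, against 0.352% of all features there, with 0.246% higher and 0.105% lower, and 4 of 1961 named genes. They were TC0700003351.rn.2, TC0X00001370.rn.2, TC0600001568.rn.2, TC1200001014.rn.2 and TC1200001018.rn.2 on the higher side and TC0200001885.rn.2 on the lower. TC0600001568.rn.2 read 10.90 with sorafenib, 9.85 with lenvatinib and 10.39 in control. TC0200001885.rn.2 on chromosome 2 read 7.52 with sorafenib, 8.56 with lenvatinib and 8.30 in control. TC1200001014.rn.2 and TC1200001018.rn.2 gave exactly the same values, 10.28 with sorafenib, 9.26 with lenvatinib and 9.80 in control, so they count as 1 measurement. Next on the lower side came TC1100002041.rn.2 at -0.84 and TC1700002271.rn.2 at -0.75. The control array lay between the drug arrays in TC0600001568.rn.2 and in the chromosome 12 pair.

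**Figure D5:**
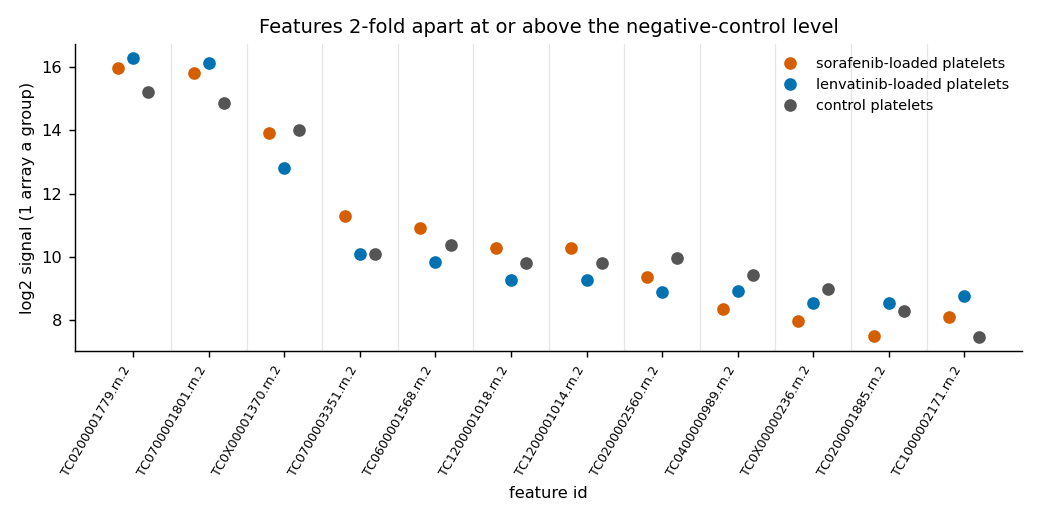
Log2 signal (y axis) on the sorafenib, lenvatinib and control arrays, 1 point an array, for the 12 features without a symbol (x axis) with a mean at or above 7.69 and at least 2-fold apart in any comparison. TC0200001779.rn.2 and TC0700001801.rn.2 show both drug arrays above control, and TC0X00001370.rn.2 shows the lenvatinib array alone below.

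Some features shared all 3 of their values with another feature. Values were taken as shared when they were equal to 5 decimals on all 3 arrays, not the same on every array, and below the ceiling. At or above the negative-control level 28 of 795 features without a symbol shared their values with another feature (3.52%), against 1 of 1735 named features (0.0576%). The named count may cover only matches to a feature without a symbol. These shares, here and above the low-signal filter, may then not be like for like. The 28 features fell into 12 sets, all chosen for description after their values were seen. On chromosome 19, TC1900000365.rn.2, TC1900000366.rn.2, TC1900000370.rn.2 and TC1900000458.rn.2 all read 15.22 with sorafenib, 15.30 with lenvatinib and 15.49 in control. The largest set held 5 features of chromosome 4, TC0400003951.rn.2 to TC0400003970.rn.2, at 9.32 with each drug and 9.26 in control. TC1300001124.rn.2 and TC1300001128.rn.2 shared 18.32 with sorafenib, 18.13 with lenvatinib and 18.31 in control. Close id numbers were not a rule, since TC0500003356.rn.2 and TC0900002331.rn.2 lie on chromosomes 5 and 9 and shared 13.51 with sorafenib and 13.89 both with lenvatinib and in control. TC0400003705.rn.2 shared its values with the named feature of Slc2a3, a glucose transporter gene, at 11.50 with sorafenib, 11.86 with lenvatinib and 11.23 in control. No name is taken from such a match, and features that share values are not separate measurements. Above the low-signal filter 83 of 3193 features without a symbol shared their values (2.60%), 27 of them with a named feature, against 27 of 6382 named features (0.423%).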

How the data were processed

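The matrix the authors deposited gives 1 log2 signal for each of 23188 features on each of 3 arrays. How background, probe summary and normalization were handled stays not given in the sources used here. A series value table, also deposited as log2, held 1646 further control features and equalled the matrix within 5e-05. Values ran from 2.24 to 19.93. The number of arrays limits the precision. No columns were left unused.

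Features without a symbol are those absent from the platform annotation table paired with the features. For named genes the feature with the highest mean was kept. The low-signal filter was the named genes' median, 4.25, and the negative-control level the 95th percentile of 1153 negative control features, 7.69. The median of those control features was 4.13, so a feature above the filter can still lie at negative-control signal. No test was made, since each group has 1 array. The 2-fold call was checked on these data with each feature's values exchanged among the arrays and known shifts added. The reading of the chromosome was checked on known ids, and other steps were not checked in this way. Software was Python 3.11.15, pandas 2.3.3 and limma 3.58.1 for cyclic loess.

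Features named by id follow a rule: up to 12 at the ceiling in id order, the 12 strongest below it, those furthest apart above the filter (6 and 6 for each drug, 4 and 4 between drugs, 3 and 3 shared), and 3 and 3 above the negative-control level. Features named in the mitochondrial, run, shared-value and called sets beyond these were chosen after their values were seen. The members and lists were chosen with earlier results of these data known. Alternatives were other filters, folds and normalizations. No sequence was printed, since no table pairs these features with one.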

Additional observations from a re-analysis of the deposited data

Results flagged for a closer look

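In the mitochondrial features below the ceiling the median difference from control had opposite signs for the drugs. It was 0.12 for sorafenib minus control and -0.0878 for lenvatinib minus control, over 8 features. Of these, TC0M00000009.rn.2 and TC0M00000023.rn.2 were tied between sorafenib and control, and TC0M00000019.rn.2 was tied between lenvatinib and control. The spread was taken over 531 other features below the ceiling with means of 14.41 or more. Their differences had an SD of 0.16 for sorafenib minus control and 0.21 for lenvatinib minus control, so both medians lay within it. With 1 array a group the difference between the drugs was not tested.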

How the results depend on the processing

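The number of features without a symbol 2-fold apart followed the filter and the fold. For sorafenib minus control, 27 became 49 with no filter, 9 with a filter at the 75th percentile of named genes, 3 at the negative-control level, 200 at 1.5-fold and 3 at 3-fold. For lenvatinib minus control, 27 became 12 and 5 with the stricter filters, 214 at 1.5-fold and 1 at 3-fold. For sorafenib minus lenvatinib, 19 became 10 and 6 with the stricter filters, 180 at 1.5-fold and 1 at 3-fold. As shares, the 1.5-fold counts were 5.23%, 5.60% and 4.71%, against 5.28%, 6.29% and 4.60% of named genes. The 3-fold counts were 0.0785%, 0.0262% and 0.0262%, against 0.0266%, 0% and 0.0133% of named genes. At the negative-control level the counts were 0.34%, 0.566% and 0.68%, against 0.153%, 0.612% and 0.204%, and at the 75th percentile 0.518%, 0.69% and 0.575%, against 0.452%, 0.718% and 0.372%. With no filter sorafenib minus control gave 0.602%, against 0.512%. Median centring, quantile and cyclic loess normalization, the value table, leaving out ties or ceiling features, and counting features with the same values once (chosen after seeing the data) kept each count within 1.5 times. The share at or above the negative controls was 15.3% at their 90th percentile, 3.35% at their 99th and 10.1% by the highest array, against 18.5% and 3.74% of named genes at those percentiles. By the highest array the median signal was 4.27. Named genes without receptor families gave 14.2%. Medians of differences of features without a symbol stayed between -0.00996 and 0.00172. Under the other normalizations the mitochondrial medians ran from 0.111 to 0.120 for sorafenib minus control. They ran from -0.0942 to -0.0712 for lenvatinib minus control, and from 0.160 to 0.186 for sorafenib minus lenvatinib. The percentiles of negative controls could not be applied to the median signal. Signal near the ceiling limits what differences can be read. No paired analysis was possible because each group has 1 array.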

Other observations

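A few features outside the placed chromosomes had signal well above the negative-control level. The strongest on an unassigned scaffold, TCUn_AABR07024041v100000001.rn.2, read 16.11 with sorafenib, 16.22 with lenvatinib and 16.36 in control. The strongest with an unmapped id, TSUnmapped00000151.rn.2, read 13.82 with sorafenib, 13.85 with lenvatinib and 13.82 in control. On an unlocalised scaffold of chromosome 7, TC7_KL567988v1_random00000001.rn.2 read 10.47 with sorafenib, 9.90 with lenvatinib and 9.61 in control, short of 2-fold.

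None of the 4 features without a symbol on the Y chromosome had a mean at or above the negative-control level. The strongest, TC0Y00000005.rn.2, read 5.50 with sorafenib, 5.30 with lenvatinib and 5.50 in control. Among runs of neighbouring ids, the second longest held 18 features on chromosome 2, with a median signal of 3.47. A run of 17 on chromosome 10 held 1 feature at or above the negative-control level, with a mean of 9.05.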
